A study of Mus musculus with 16 samples.

Results

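The T cell receptor beta (Trb) locus of the mouse carries a row of variable segments, named Trbv, each of which can supply the variable part of a beta chain. All 35 rows of the deposited table of 56748 genes whose gene name starts with Trbv were taken as members, and each was expressed as its share of the summed Trbv counts of a sample. Of these 35 segments, 22 are annotated as V genes and 13 as pseudogenes. The samples were 16 bulk libraries of poly(A) RNA from memory CD4+ T cells of the spleen, sorted as CD4+ CD25low/- CD62L- CD44high from male mice that the study describes as 6 to 12 weeks old, on a mixed 129/Sv and C57BL/6 background. There were 4 groups of 4 samples; whether the samples of a group came from separate mice is not stated in the labels, so p values measure the spread between these samples. In the HP1α line, Hp1a-/- mice (HP1α KO) were compared with Hp1a+/+ mice (HP1α-line WT), both from intercrosses of heterozygotes whose loxP-flanked Hp1a allele had been deleted with CMV-cre, so that the KO lacked HP1α in every tissue from the germ line on. In the HP1γ line, all mice were Hp1g flox/flox, and the KO mice (HP1γ KO) also carried Cd4-cre, which is active from the late stages of T cell development in the thymus; the HP1γ-line WT mice carried the floxed alleles without Cre. The loss of HP1γ and the presence of Cre therefore cannot be told apart. The cells are described here by the sample titles and the study's methods, whereas the treatment label and the series design speak of a transfer that involved regulatory T cells, and this conflict could not be settled. The methods also set aside 1 HP1γ RNA-seq sample for its quality; which of the 8 samples of that line it is, or whether it is one of them, could not be worked out, and all 16 were used.

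In a developing T cell of the thymus, the RAG recombinase joins 1 Trbv segment to a D and a J segment, and splicing places the joined V-D-J exon before a constant exon, Trbc1 or Trbc2. A beta chain that can be expressed stops further joining on the other allele, so most T cells use 1 Trbv segment, and the share of a segment in bulk RNA is set by how often it is joined, by selection in the thymus, by division of the cells that carry it, and by the amount of message per cell. Fewer cells with a segment and less RNA per cell cannot be told apart in these bulk samples, so a share here is a share of message, not of cells. HP1α, encoded by Cbx5, and HP1γ, encoded by Cbx3, are chromatin proteins that bind methylated histone H3 and are known for their part in heterochromatin.

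RAG cuts beside each segment at a recombination signal, a heptamer and a nonamer held apart by a spacer of about 23 bases, and the signals are shown here because they are the sequence that RAG reads. They were searched for in the mouse genome build GRCm39 around the end of each annotated segment, on the strand of the segment. Spacers of 22 to 24 bases were allowed. The placement with the most matches to the heptamer and nonamer given below was kept, so a count of matches is the highest found. Capitals mark the heptamer and the nonamer, and matches are counted against CACAGTG and ACAAAAACC. The first set holds segments with all 7 heptamer bases:
Trbv1, chr6:40868820-40868858, plus strand: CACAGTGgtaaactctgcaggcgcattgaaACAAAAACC
Trbv13-1, chr6:41093403-41093441, plus strand: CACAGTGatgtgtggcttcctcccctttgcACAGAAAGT
Trbv13-2, chr6:41098767-41098805, plus strand: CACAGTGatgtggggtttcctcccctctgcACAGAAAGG
Trbv13-3, chr6:41107520-41107558, plus strand: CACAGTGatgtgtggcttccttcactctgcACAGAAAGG
Trbv21, chr6:41179979-41180016, plus strand: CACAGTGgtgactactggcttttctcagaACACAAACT
Trbv1 matched at 16 of 16 bases and each member of the Trbv13 family at 13. Trbv21, with 14 matches and a spacer of 22 bases, was nevertheless close to absent from the message, with a mean share of 0.0238% (range 0 to 0.0903%, n = 16). An exact heptamer was found in 8 of the 22 V genes (36.4%), in 0 of the 13 pseudogenes, and in 60 of 17108 windows of 39 bases along the forward strand of the locus (0.351%). Among V genes the mean share ranged from 0.0238 to 14.4% for the 8 with all 7 heptamer bases, from 0.232 to 6.49% for the 7 with 6, and from 1.03 to 9.58% for the 7 with 5, so the 3 ranges overlapped widely. The pair Trbv12-1 and Trbv12-2, which encode the Vβ5 chains, is shown because its signals are almost the same sequence while its use is not:
Trbv12-1, chr6:41091002-41091041, plus strand: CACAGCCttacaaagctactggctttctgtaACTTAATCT
Trbv12-2, chr6:41096299-41096338, plus strand: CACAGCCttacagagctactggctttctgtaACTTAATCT
These signals differed at 1 of 40 bases, and each matched at 10 of 16 with a spacer of 24 bases. The mean shares of the 2 segments were 1.03% and 2.72%. Trbv12-2 was above Trbv12-1 in every sample. The last set holds Trbv23, Trbv26 and Trbv31, whose level differed between the lines, for Trbv31 only under some ways of scaling the libraries:
Trbv23, chr6:41193461-41193498, plus strand: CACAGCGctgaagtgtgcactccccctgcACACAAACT
Trbv26, chr6:41204928-41204966, plus strand: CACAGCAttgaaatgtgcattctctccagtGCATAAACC
Trbv31, chr6:41534588-41534626, minus strand: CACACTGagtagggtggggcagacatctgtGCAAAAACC
Trbv23 matched at 13 of 16 bases with a spacer of 22 bases, Trbv26 at 12 and Trbv31 at 14, each of the latter with a spacer of 23. A letter match describes the reference genome only and not the alleles of these mice.

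The libraries held 26694045 to 40199637 counts assigned to genes, of which 8007 to 15652 fell on Trbv segments. Cbx5 was at 23.05 to 29.0 CPM (counts scaled to library size) in HP1α KO and 33.8 to 54.0 in the WT of that line. In the edgeR test used below, Cbx5 was not called (log2 fold change -0.58 ± 0.15, SE, unadjusted p = 0.00257, adjusted p = 0.946). Cbx3 was at 45.9 to 50.3 CPM in HP1γ KO and 73.4 to 92.5 in its WT, and it was called (-0.82 ± 0.08, adjusted p = 0.0015). The remaining message can come from exons outside the deleted part. The defining CD4+ T cell genes Cd3e, Cd4, Trac, Trbc1 and Trbc2 summed to 3121 to 3634 CPM. Transcripts of other cells were low but present: 5 B cell genes summed to 6.17 to 24.5 CPM, 5 myeloid genes to 23.5 to 112.9, 2 CD8 genes to 5.09 to 18.5, and 5 γδ T cell genes to 27.4 to 57.5, and no list had a gene whose median was 0 except the rearranged Traj18 of the iNKT list. Foxp3, the marker of regulatory T cells, was at 57.6 to 164.3 CPM despite the CD25low/- gate.

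Of the 35 segments, 27 had a count in at least 1 sample. The 8 others, Trbv6, Trbv7, Trbv9, Trbv11, Trbv18, Trbv25, Trbv27 and Trbv28, are all annotated pseudogenes and were at 0 counts in all 16 samples, which allows each a share of at most 0.0192 to 0.0375% of a sample's Trbv counts (3 counts of the total; this floor, like the intervals given with other shares, covers counting error only). Between 22 and 25 segments were above 0 in a single sample. Pseudogenes together took 0.154 to 0.356% of the Trbv counts, and nearly all of this was Trbv24, which was detected in all 16 samples at 0.154 to 0.339% (median 0.232%). Trbv8, Trbv10 and Trbv12-3 had 3 counts each in all samples together. Trbv22 had 24 counts, spread over 8 samples. No V gene was missing from a group: Trbv21, the rarest, had 0 to 10 counts per sample and was above 0 in 14 of the 16.

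The 19 segments with a mean share of at least 1% were all V genes, and the use of these was uneven but broad. Trbv13-2, which encodes Vβ8.2, led in all 16 samples, with 11.8 to 19.6% of the counts (median 14.1%). Next came Trbv13-1 (Vβ8.3) with a median of 9.79% and a range of 7.32 to 12.4%, Trbv3 with 9.16% and 7.16 to 14.03%, and Trbv1 (Vβ2) with 7.63% and 5.86 to 10.1%. The middle of the list was formed by Trbv15, Trbv19, Trbv13-3, Trbv29, Trbv5, Trbv16, Trbv31 and Trbv2, with medians between 3.47 and 6.57%. Trbv12-2, Trbv4, Trbv20, Trbv14, Trbv26, Trbv17 and Trbv12-1 lay between 1.00 and 2.78%. The remaining V genes Trbv30 and Trbv23 had medians of 0.249% and 0.218%. An effective number of segments, 2 to the power of the Shannon entropy of the shares, was 14.7 to 16.5 per sample, with group means of 15.9 ± 0.35 in HP1α KO, 16.1 ± 0.31 in its WT, 15.9 ± 0.38 in HP1γ KO and 15.5 ± 0.81 in its WT (SD, n = 4). The ranges of the 4 groups overlapped.

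**Figure D1:**
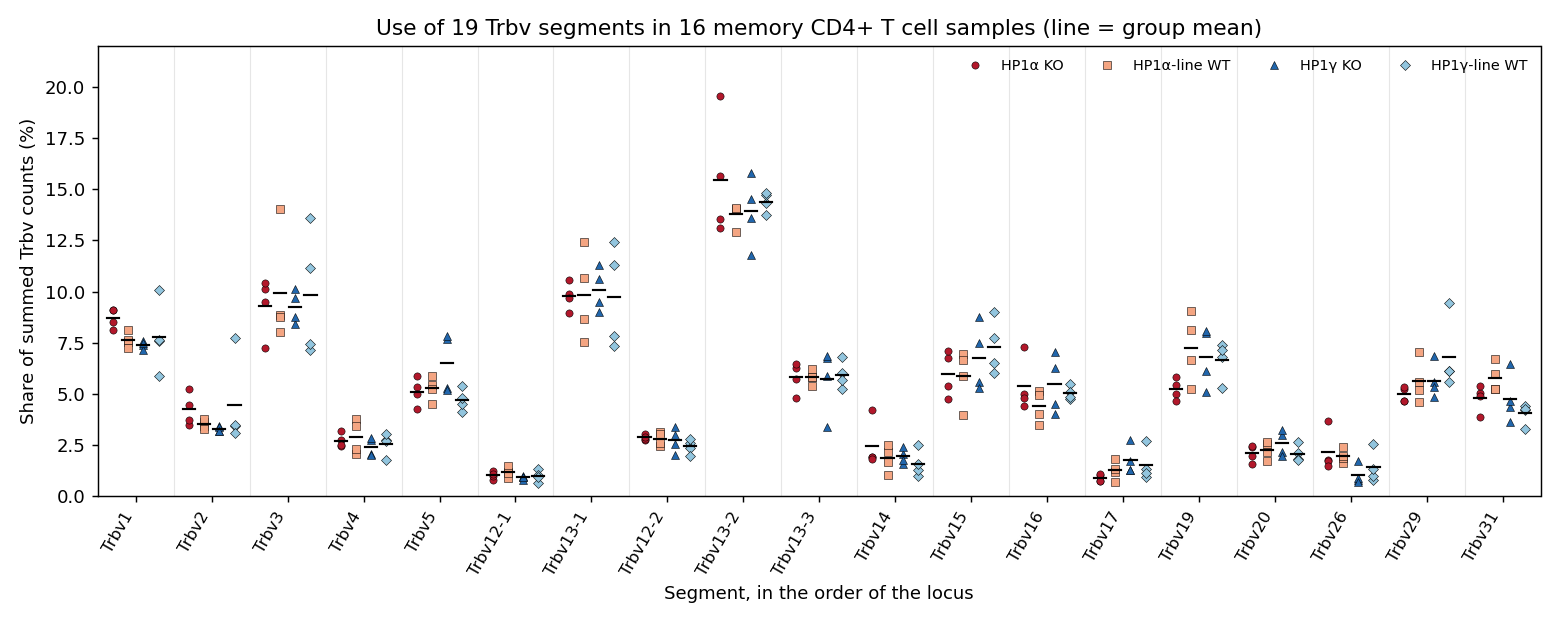
Share of the summed Trbv counts (y axis, %) for the 19 segments with a mean share of at least 1%, in the order of the locus (x axis); each point is 1 sample, coloured by group, and the short black line is the group mean. Trbv13-2 is highest in all 16 samples, at 11.8 to 19.6%, and the points of the 4 groups lie among each other for nearly every segment.

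Segments differ in length, so their levels were compared as TPM, which divides by transcript length and scales to the library. On this scale Trbv13-2 stood at 432 ± 72.3 TPM (SD, n = 16), Trbv13-1 at 258 ± 39.1, Trbv3 at 177 ± 44.5, Trbv13-3 at 174 ± 27.7, Trbv15 at 167 ± 35.9, Trbv1 at 166 ± 21.1 and Trbv29 at 161 ± 34.9. Trbv19, whose annotated exons are longer than those of its neighbours, was at 86.9 ± 18.9 TPM, and its mean share was 6.49% of counts but 3.60% of TPM. Of the 20 pairs of V genes that followed each other directly in this order, only 2 kept the order in all 16 samples: Trbv13-2 over Trbv13-1, and Trbv12-1 (24.4 ± 5.51 TPM) over Trbv30 (10.5 ± 5.08). The rest changed order in at least 1 sample, though not to the same degree. Trbv3 stood over Trbv13-3 in 7 of 16 samples and Trbv15 over Trbv1 in 6 of 16. Trbv13-1 stood over Trbv3 in 14 of 16, and Trbv23 (6.73 TPM) over Trbv21 (0.68 TPM) in 15 of 16.

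The spread between samples of a group was larger than counting gives. Over the 19 segments, the SD of the share within groups was 2.28 to 8.23 times the SD expected from counting alone (median 5.22 times), and as a percent of the mean share it ran from 11.7% for Trbv1 to 42.6% for Trbv26 (median 20.8%). It was smallest against counting for Trbv12-1 and Trbv12-2 and largest for Trbv3. The distance between the profiles of 2 samples, taken as the percent of Trbv counts that would have to move from one segment to another to make them equal, had a median of 10.5% (7.03 to 13.3%, 24 pairs) for samples of the same group. It was 10.5% (5.99 to 14.3%, 32 pairs) between KO and WT of one line, 10.3% (7.51 to 16.2%, 32 pairs) between lines at the same genotype, and 10.8% (6.38 to 15.3%, 32 pairs) between lines at the other genotype. These are descriptions of pairs that share samples, so no test was run on them, and all 4 kinds of pair covered much the same range.

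**Figure D2:**
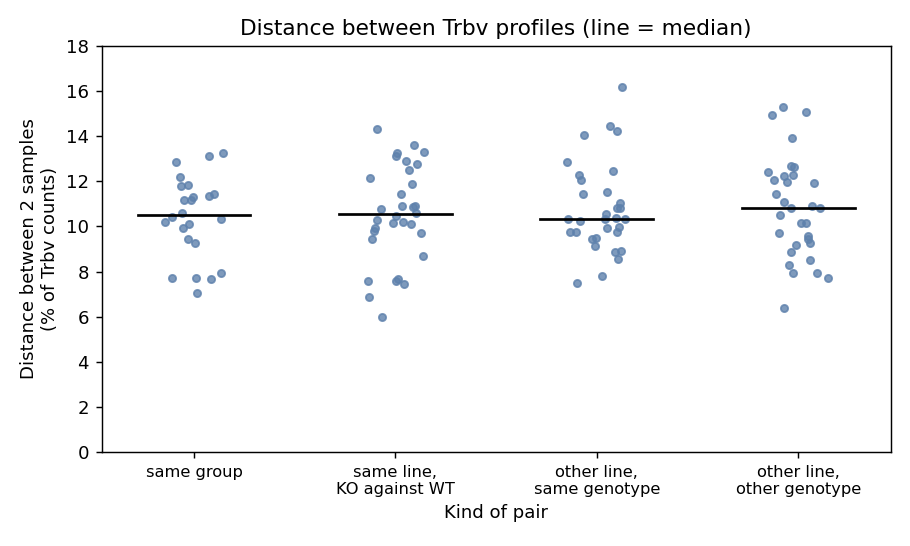
Distance between the Trbv profiles of 2 samples (y axis, percent of Trbv counts that differ) for all pairs of samples, by kind of pair (x axis); each point is a pair and the black line the median. The medians lie between 10.3 and 10.8% for all 4 kinds.

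HP1α KO and the WT of its line were compared to ask whether loss of HP1α changed which segments memory cells used. The edgeR quasi-likelihood test was used, with p values adjusted over all genes tested after Benjamini and Hochberg. It called 0 of the 22 segments that passed the filter on low counts, against a background of 0% of 14881 genes called. Cbx5, the targeted gene, was thus not called by this test either. DESeq2 also called 0 segments, beside 5 of 26948 genes tested. In the edgeR test 2 segments had an unadjusted p under 0.05, Trbv1 and Trbv19, beside 4.27% of all genes. Of the 22, 11 had a higher and 11 a lower mean, with a median log2 fold change of 0.01, against 0.00 over all genes. Trbv1, a segment that can pair with the invariant alpha chain of iNKT cells, had shares of 9.11, 8.53, 9.11 and 8.11% in the KO samples and 7.52, 7.24, 7.65 and 8.12% in the WT samples, so that the lowest KO sample lay just under the highest WT sample. In CPM its groups did not overlap, which was the case for this 1 segment of 22 and for 2.96% of all genes. The log2 fold change was 0.23 ± 0.06 (SE; unadjusted p = 0.00456, adjusted p = 0.946), the smallest unadjusted p among the segments.

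Trbv19 encodes Vβ6, the chain by which the study followed donor-specific cells in its grafts, and it was the 1 segment whose share was tested on its own. It took 5.45, 5.85, 4.98 and 4.64% of Trbv counts in HP1α KO and 6.64, 8.12, 9.06 and 5.26% in the WT of that line, where 3 of 4 WT samples were above every KO sample. The means differed by -2.04 percentage points (5.23 ± 0.53% against 7.27 ± 1.67%), with p = 0.0857 in a two-sided exact permutation test; 4 samples against 4 cannot give a p below 0.0286. In the edgeR fit its log2 fold change was -0.44 ± 0.16 (adjusted p = 0.946). In the HP1γ line, Trbv19 shares were 7.97, 6.11, 8.07 and 5.08% in KO and 6.80, 7.39, 7.13 and 5.30% in WT, a difference of 0.152 percentage points (exact permutation p = 0.914) whose sign turned when single samples were left out. Between the WT groups of the 2 lines the difference was 0.616 points (exact permutation p = 0.571). Adjusted over these 3 comparisons by Benjamini-Hochberg, the smallest p was 0.257.

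The summed shares of the role lists were compared as descriptions, without a test. In HP1α KO and its WT, the 3 members of the Vβ8 family (Trbv13-1, Trbv13-2 and Trbv13-3) took 31.1 ± 2.94% and 29.4 ± 2.21% (SD, n = 4), and the 2 Vβ5 segments 3.91 ± 0.11% and 3.98 ± 0.52%. The 3 segments that pair with the invariant alpha chain of iNKT cells (Trbv13-2, Trbv29 and Trbv1) took 29.2 ± 2.53% and 27.0 ± 1.42%. For Trbv12-1, Trbv12-2, Trbv16 and Trbv15, whose chains are read by endogenous superantigens presented on I-E, the sums were 15.3 ± 0.72% and 14.2 ± 1.82%. The 4 segments read by the Mtv-7 superantigen (Trbv19, Trbv29, Trbv13-3 and Trbv17) summed to 16.9 ± 0.44% in the KO (16.6 to 17.5%). In the WT they summed to 19.97 ± 1.40% (17.999 to 21.1%). These ranges did not overlap but came close, at 17.5 against 17.999%, while those of every other list in this line overlapped. The 2.96% of single genes with CPM ranges apart is a different measure and gives no background for a sum of shares. Trbv19 alone had means of 5.23% in the KO and 7.27% in the WT. Of these segments only Trbv19 had an unadjusted p under 0.05, and the sum itself was not tested. The study describes the Mtv-7 superantigen as expressed by the donor cells of its grafts and not by the hosts. Whether the mice used here expressed it, or I-E, is not stated, so these sums do not measure selection by superantigens.

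Between HP1γ KO and the WT of its line no segment was called either. The edgeR quasi-likelihood test called 0 of 22, with 0.327% of 14975 genes called as background. DESeq2 also called 0 segments, beside 252 of 17203 genes tested. In the edgeR test no segment had an unadjusted p under 0.05, where 11.9% of all genes did. In no segment were the CPM ranges of the groups apart, against 7.10% of all genes. The lowest p values belonged to Trbv29, Trbv5 and Trbv2. Trbv29, the Vβ7 segment, took 5.60, 6.87, 4.84 and 5.33% in KO and 5.56, 9.42, 6.12 and 6.12% in WT (log2 fold change -0.38 ± 0.17, unadjusted p = 0.0503, adjusted p = 0.418), with 1 WT sample high. Trbv5, the Vβ1 segment, took 5.30, 7.68, 5.21 and 7.84% in KO and 5.41, 4.12, 4.50 and 4.81% in WT (0.36 ± 0.17, adjusted p = 0.435), with 2 KO samples high and the other 2 below the highest WT sample. Trbv2, the Vβ4 segment, was at 3.21, 3.42, 3.37 and 3.22% in KO and at 3.42, 3.505, 7.73 and 3.10% in WT (-0.50 ± 0.23, adjusted p = 0.441), where the mean rested on 1 WT sample. The median log2 fold change of the 22 segments was -0.07, against 0.00 over all genes, and 9 were higher and 13 lower.

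In the HP1γ line the Vβ8 family took 29.7 ± 2.55% in KO and 30.05 ± 2.48% in WT, the Vβ5 segments 3.68 ± 0.54% and 3.43 ± 0.43%, and the segments read by the Mtv-7 superantigen 19.9 ± 1.92% and 20.9 ± 2.05%. The segments that pair with the invariant alpha chain took 27.0 ± 1.78% and 28.98 ± 2.52%, and those read by superantigens on I-E 15.9 ± 1.73% and 15.8 ± 1.81%. The Trbv31 end of the locus lies 9.91 Mb from Cbx3, on the same chromosome 6.

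The difference between both knockout effects was tested as an interaction over all 16 samples. It was called for 0 of 22 segments by edgeR's quasi-likelihood test, beside 0.0507% of 15776 genes. DESeq2 called 0 segments too, beside 79 of 16185 genes tested. In the edgeR test 2 segments had an unadjusted p under 0.05, beside 9.58% of all genes. These were Trbv1 (interaction 0.40 ± 0.12 on the log2 scale, adjusted p = 0.371) and Trbv2 (0.80 ± 0.29, adjusted p = 0.44). For Trbv2 the value includes the high HP1γ-line WT sample named above.

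**Figure D3:**
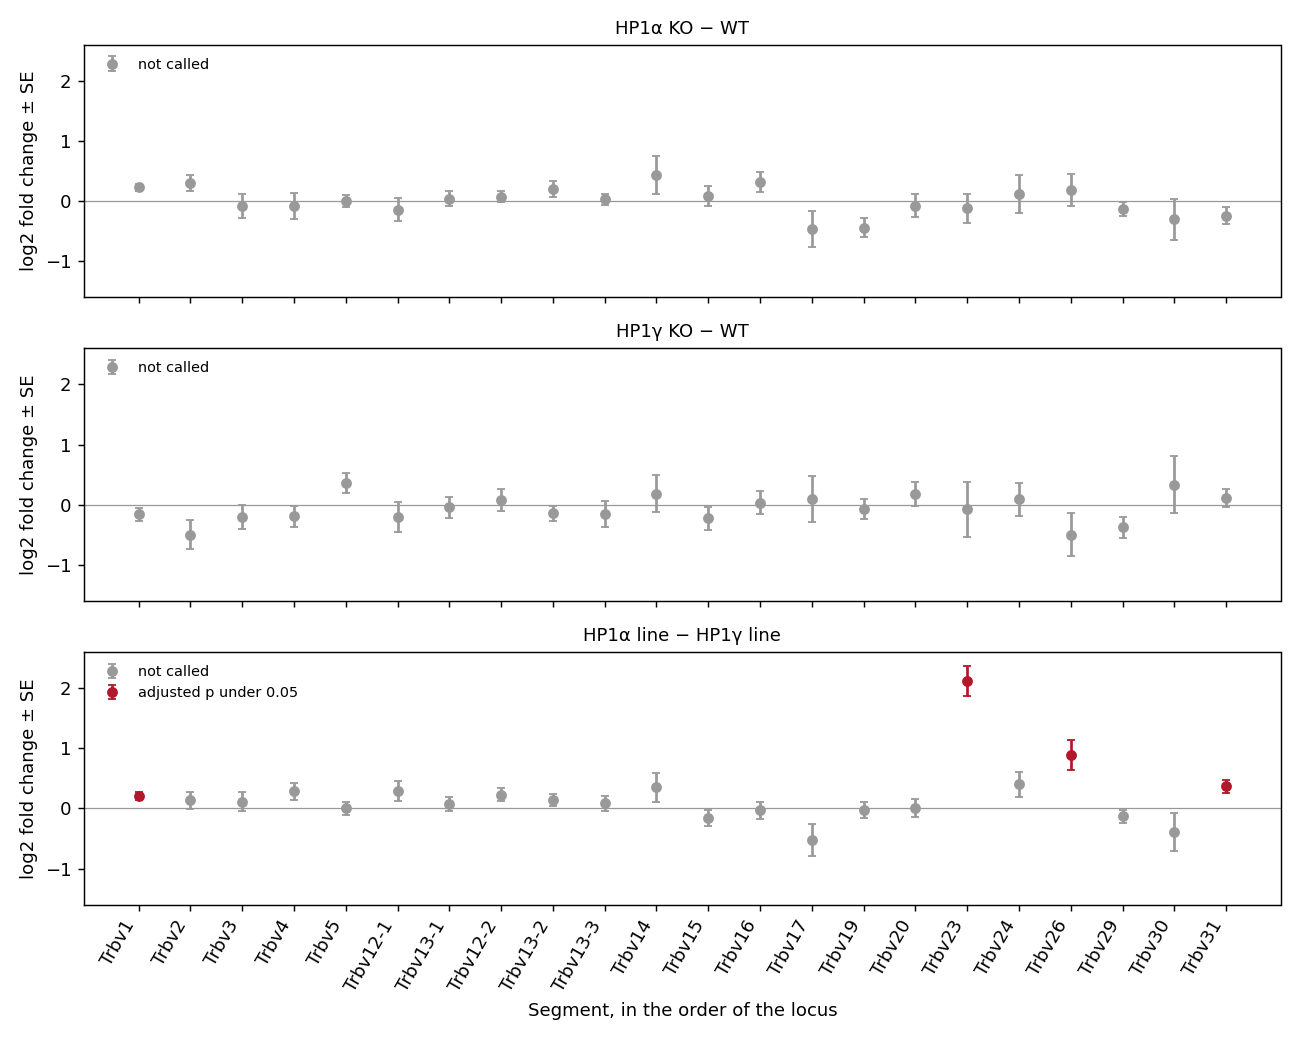
Log2 fold change with its standard error (y axis) of the 22 tested segments in the order of the locus (x axis), for HP1α KO against WT, HP1γ KO against WT, and the HP1α line against the HP1γ line; red marks an adjusted p under 0.05. No segment is red in the knockout panels, and Trbv1, Trbv23, Trbv26 and Trbv31 are red and above 0 in the comparison of lines.

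Averaged over genotype, 4 segments were called between the lines. Of these, 2, Trbv23 and Trbv26, were also called with the summed Trbv counts as library size. Trbv26 and Trbv1 were not called between the WT groups alone. The mice of each line were bred apart on a mixed background, so alleles of the Trb locus, of the genes that shape selection, and the rearing of the colonies cannot be told apart from the line. Averaged over genotype in all 16 samples, Trbv23, Trbv26, Trbv31 and Trbv1 were called, all higher in the HP1α line, and 0 were called lower; 41.8% of 15776 genes were called and 21.0% were called higher, so that a share of 4 in 22 is not above the background. The CPM ranges of the lines were apart for 1 segment, Trbv23, against 8.84% of all genes. Between the WT groups alone, Trbv23 and Trbv31 were called, both higher in the HP1α line, where 12.8% of 14804 genes were called and 4.55% were called higher. Ranges did not overlap for these 2 segments, against 19.5% of all genes. These comparisons share the WT samples.

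Some markers of the sort gate and of other cells were also called between the lines. The background was 41.8% of 15776 genes over all samples and 12.8% of 14804 between the WT groups. Over all samples, no list of other cells had a share of called genes above this background. Of the 3 gate genes, 2 were lower in the HP1α line over all samples, Cd44 (-0.34 ± 0.04, adjusted p = 2.74e-05) and Il2ra, the gene of CD25 (-0.31 ± 0.10, adjusted p = 0.0155), and Cd44 was also lower between the WT groups (-0.35 ± 0.07, adjusted p = 0.0104). Of the marker lists of other cells, 1 of 5 γδ T cell genes was lower in the HP1α line (Sox13, -1.56 ± 0.49, adjusted p = 0.0167). Sox13 was low throughout, at 1.12 CPM or less. Of 3 tested iNKT genes 1 was also lower there (Zbtb16, -0.41 ± 0.10, adjusted p = 0.00473). There 1 of 5 B cell genes was higher (Cd79b, 0.39 ± 0.15, adjusted p = 0.049), as was 1 of 5 myeloid genes (Lyz2, 0.76 ± 0.28, adjusted p = 0.0369). Of the regulatory T cell list 1 of 3 was called, the same Il2ra, and 0 were called of the CD4+ T cell, CD8 and NK lists over all samples. Between the WT groups 1 of 3 tested iNKT genes and 1 of 2 tested NK cell genes were called, shares above the 12.8% of all genes. These were Zbtb16 (-0.57 ± 0.15, adjusted p = 0.0316) and the NK cell gene Eomes (-0.68 ± 0.13, adjusted p = 0.0096), both lower in the HP1α line. The part of these differences in the use of segments was not tested.

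Trbv23, annotated as a V gene, was the segment that set the lines apart. It took 0.361, 0.411, 0.348 and 0.288% of Trbv counts in HP1α KO and 0.288, 0.332, 0.533 and 0.432% in the WT of that line, but 0.0749, 0.148, 0.0542 and 0.0925% in HP1γ KO and 0.125, 0.120, 0.0563 and 0.0520% in the WT of the HP1γ line. Every sample of the HP1α line was thus above every sample of the HP1γ line, whatever its genotype. In counts this was 33 to 54 against 6 to 17 per sample, and the mean share was 0.374 ± 0.0825% against 0.0903 ± 0.037% (SD, n = 8). The log2 fold change between lines was 2.11 ± 0.25 (edgeR, adjusted p = 1.94e-05), and between the WT groups it was 2.13 ± 0.37 (adjusted p = 0.00814). Within lines the knockouts differed from WT by -0.12 ± 0.24 and -0.08 ± 0.45, neither of which was called.

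Trbv26, the Vβ3 segment, starts 10.98 kb beyond Trbv23. Its shares were 1.79, 1.73, 1.499 and 3.70% in HP1α KO and 2.42, 1.65, 1.89 and 1.98% in the WT of that line, against 0.799, 0.919, 0.723 and 1.73% in HP1γ KO and 0.792, 0.999, 2.55 and 1.33% in its WT. Of the HP1γ-line samples, 6 of 8 were below the whole HP1α line and 2 lay within it. The difference between lines was 0.89 ± 0.24 (adjusted p = 0.00815); between the WT groups it was 0.54 ± 0.28 and was not called (adjusted p = 0.217), and it was called there when HP1γ-line WT sample 3 was left out. Trbv24, the transcribed pseudogene that lies between them, 1.56 kb from Trbv23, had a difference of 0.40 ± 0.21 that was not called (adjusted p = 0.136). Its neighbours on the other side, Trbv29 and Trbv30, had differences of -0.13 ± 0.11 and -0.39 ± 0.31 and were not called.

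Trbv31, the Vβ14 segment, is the only one in inverted orientation and lies apart from the others, 275.7 kb beyond Trbv30 and past the constant genes. It took 5.23, 6.72, 6.00 and 5.22% in the WT of the HP1α line and 4.39, 4.22, 4.28 and 3.31% in the WT of the HP1γ line, ranges that did not overlap (log2 fold change 0.54 ± 0.14, adjusted p = 0.0355). The KO samples stood closer, with 5.03, 5.37, 4.91 and 3.88% in HP1α KO and 6.47, 4.35, 3.61 and 4.65% in HP1γ KO, where the highest single value belonged to an HP1γ KO sample. Over all 16 samples the difference was 0.37 ± 0.11 (adjusted p = 0.0118). It was no longer called when the summed Trbv counts were used as library size (0.26, adjusted p = 0.0745). In the WT comparison every fit that left out 1 sample lost the call, except that without HP1α-line WT sample 4 (0.42 to 0.63 over the 8 fits).

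Trbv1 differed between the lines by 0.21 ± 0.06 (adjusted p = 0.0119), a small difference averaged over genotype. Between the WT groups alone its difference was 0.01 ± 0.10 and was not called (adjusted p = 0.98). Its shares in the HP1γ line were 7.61, 7.39, 7.15 and 7.50% in KO and 5.86, 7.60, 10.1 and 7.66% in WT, and the HP1γ-line WT group held both the lowest and the highest value of all samples. With the summed Trbv counts as library size it was not called (0.10, adjusted p = 0.362). The summed Trbv level itself was 344.4 to 394.4 CPM in the HP1α line and 303.6 to 388.7 CPM in the HP1γ line.

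**Figure D4:**
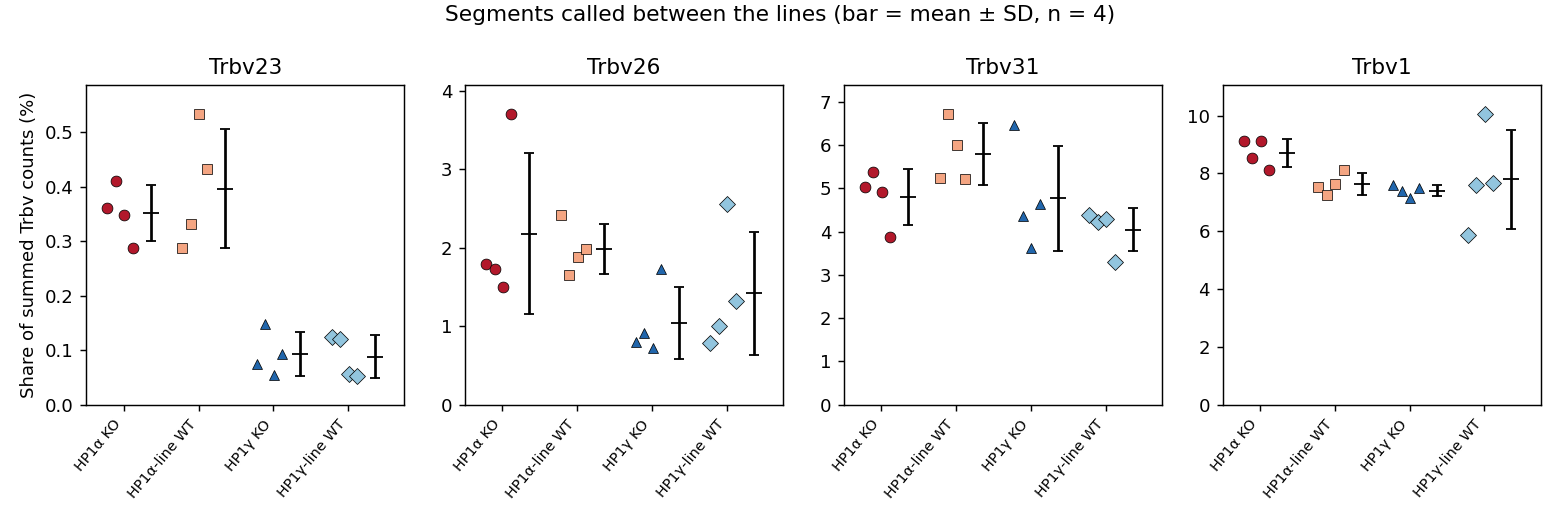
Share of Trbv counts (y axis, %) of the 4 segments called between the lines, by group (x axis); points are samples and the bar is the mean ± SD (n = 4). For Trbv23 all 8 samples of the HP1α line are at 0.288% or more and all 8 of the HP1γ line at 0.148% or less, while the lines overlap for Trbv26, Trbv31 and Trbv1.

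Some segments stood out in single samples. A share was called expanded at 2 times the median of the 16 samples or more, and reduced at 0.5 times or less, among the 19 segments; 5 of 304 segment-sample pairs were expanded, 3 were reduced, and none reached 3 times. Trbv2 took 7.73% of the counts in HP1γ-line WT sample 3 (823 counts, 95% Wilson interval 7.24 to 8.25%), against a median of 3.47% and a next highest value of 5.26%. Trbv14, the Vβ13 segment, took 4.21% in HP1α KO sample 3 (interval 3.86 to 4.58%), against a median of 1.87% and a next highest of 2.53%. Each of these expansions was of 1 sample only.

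Trbv17, the Vβ9 segment, took 2.73% in both HP1γ KO sample 4 and HP1γ-line WT sample 1, against a median of 1.25%. Trbv26 was expanded in HP1α KO sample 4, at 3.70% (interval 3.41 to 4.02%), and reduced in 3 samples of the HP1γ line, at 0.799% in KO sample 1, 0.723% in KO sample 3 and 0.792% in WT sample 1, against a median of 1.69%. The expansions were in 2 HP1α KO samples, 1 HP1γ KO sample and 2 HP1γ-line WT samples, and the HP1α-line WT group held 0 expanded and 0 reduced segments. No V gene detected in a WT group was at 0 throughout a knockout group. An expansion in message from 1 sample has no replicate.

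**Figure D5:**
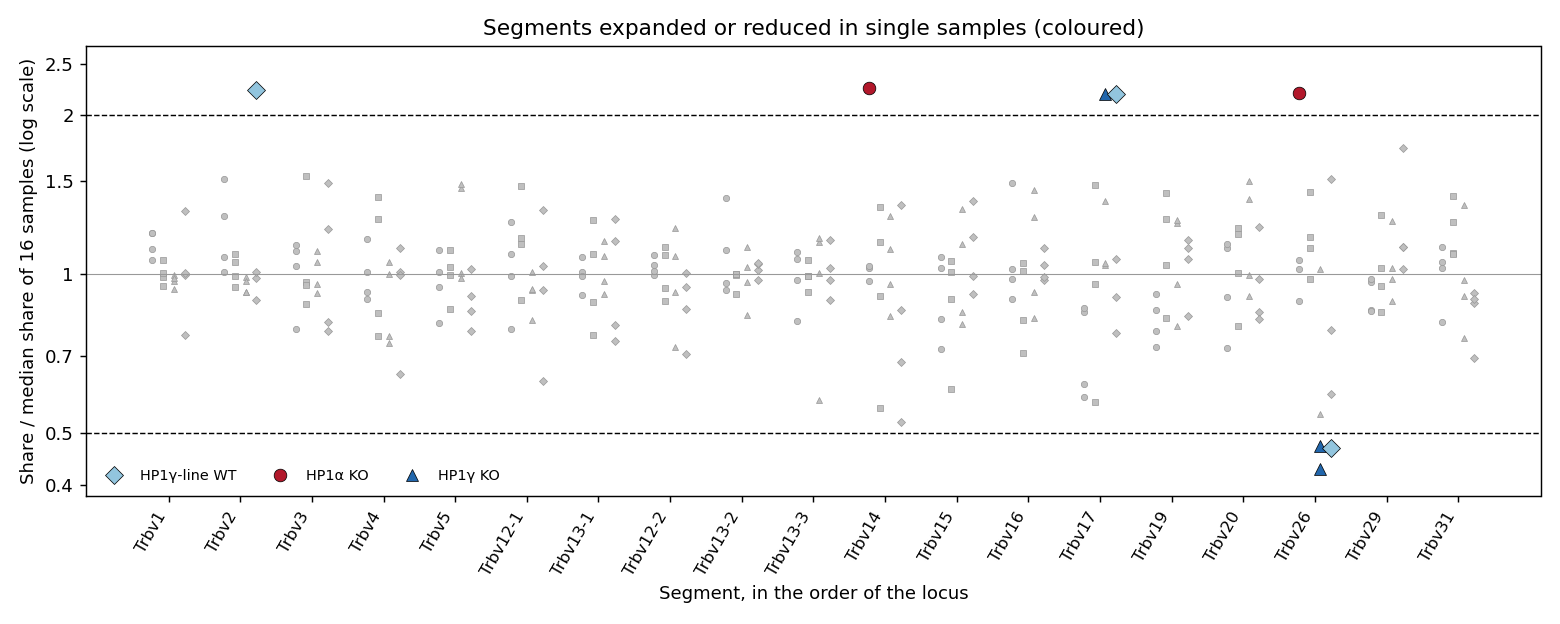
Share of each segment divided by its median over the 16 samples (y axis, log scale) for the 19 segments (x axis); grey points are samples within the dashed lines at 0.5 and 2, and coloured points are outside them. The coloured points are Trbv2, Trbv14, Trbv17 (2 samples) and Trbv26 above, and Trbv26 in 3 samples of the HP1γ line below.

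Trbv29 reached 9.42% in HP1γ-line WT sample 2, the highest of the 16 samples, while the other 15 lay between 4.61 and 7.05%. The same sample had the highest Zbtb16, the gene of the transcription factor PLZF, at 99.7 CPM (33.3 to 75.8 in the others), and the highest Trav11, the segment of the invariant alpha chain of iNKT cells, at 21.5 CPM. Of the 4 iNKT genes Traj18 was at or near 0, with at most 0.08 CPM, and the summed list was 172.5 CPM in this sample, against 85.4 to 128.3 in the HP1α line, 89.8 to 118.2 in HP1γ KO and 108.6 to 131.9 in the other HP1γ-line WT samples. Trbv13-2, a further segment that pairs with this alpha chain, was at 14.7% in the sample, close to its median. Klrb1c of the same list, which encodes NK1.1, was not highest there, with 51.2 CPM against 30.1 to 55.9 in the others. The summed γδ T cell list was highest in the same sample, at 57.5 CPM against 27.4 to 46.02. The part of iNKT or γδ T cells in the share of Trbv29 was not tested.

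The rest of the receptor was compared in the same fits. Trbc1 and Trbc2, the constant genes of the locus, were called in 0 of the 5 comparisons, and Trbc1 made up 25.4 to 31.4% of the Trbc counts. Trbv counts were 0.285 to 0.321 of the Trbc counts in every sample, with group means between 0.294 and 0.304. The 2 Trbd rows had no count and the 14 Trbj rows at most 0.11 CPM. Of the 6 genes of the receptor complex (Cd3d, Cd3e, Cd3g, Cd247, Trac and Ptcra), 5 were tested, with 0 called in either knockout comparison, in the interaction or between WT groups; between the lines 1 of the 5 was called, Cd3d, a chain that carries the receptor's signal, which was higher in the HP1α line (0.18 ± 0.04, adjusted p = 0.000788), where 21.0% of all genes were called higher.

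Of 11 recombination and end-joining genes, 9 were tested and 0 were called in either knockout comparison or the interaction. Rag1 and Rag2, the recombinase itself, were at 0.08 CPM or less. Between the lines over all samples 3 of the 9 were called and between WT groups 1, beside the 41.8% and 12.8% of all genes called there, so neither share is above the background. Over all samples 1 was higher in the HP1α line, Xrcc6, the gene of Ku70 (0.36 ± 0.07, adjusted p = 0.000626), which was also the 1 called between WT groups. In the same comparison 2 were lower, Dclre1c, the gene of the hairpin opener Artemis (-0.50 ± 0.09, adjusted p = 0.000352), and Dntt, the gene of the enzyme that adds bases at the joins (-1.48 ± 0.44, adjusted p = 0.0124). Dntt was low throughout, with 0.41 to 1.18 CPM in the HP1α line and 0.58 to 7.85 CPM in the HP1γ line, where HP1γ KO sample 4 and HP1γ-line WT sample 2 were highest.

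Reads of some segments also match other genes. Trbv4 and Trbv5 are 100% identical to 5830405F06Rik over 297 and 296 bases, which held 42.9 to 104.5 counts per sample, beside 194.8 to 540.5 for Trbv4 and 424.6 to 1016 for Trbv5, and how reads were divided among the 3 was not tested, so the values of these 2 segments are uncertain. The pseudogene Trbv8 is likewise 100% identical to Gm49885 over 285 bases. Within families, Trbv13-2 and Trbv13-3 are identical at 90.6% of 340 aligned bases, Trbv13-1 and Trbv13-2 at 87.9%, and Trbv12-1 and Trbv12-2 at 88.3% of 385, and how reads from stretches common to both were divided was not tested.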

How the data were processed

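RNA from 16 samples of splenic memory CD4+ T cells was sequenced by the authors as stranded, paired-end poly(A) libraries. The authors aligned reads with STAR and quantified them with Salmon against GRCm39, and deposited a table of estimated counts, some of them fractional, and a table of TPM, which the quantification scales for transcript length and library size. The estimated counts were rounded for testing. Totals ranged from 26694045 to 40199637 counts per sample, and the 8007 to 15652 Trbv counts set the precision of a share.

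Segments were the rows whose name starts with Trbv, and none was dropped from the shares. Each comparison was fitted on the whole table with edgeR 4.0.16 (R 4.3.3; TMM scaling, filterByExpr, quasi-likelihood F test), with Benjamini-Hochberg adjustment over all genes tested and a call at an adjusted p under 0.05. Trbv19 shares were compared with two-sided exact permutation tests (scipy 1.17.1). Sequence identity was found with blastn 2.17.0 and signals were read from GRCm39 with the GENCODE annotation, in which 56017 of 56748 identifiers were found. The fits were tested on simulated data, where the interaction fit recovered a smaller part of the changes put in than the other fits did. Segments were named if their mean share was at least 1%, if they were called, if they were expanded or reduced in a sample, or if they were at 0 throughout. The members and lists were chosen with earlier results of these data known. Alternatives were RLE scaling, no filter on low counts, DESeq2 1.42.0, summed Trbv counts as library size, a replicate block, 1 fit over all samples, leaving out each sample, shares of TPM, shares without pseudogenes and other thresholds for expansion.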

Additional observations from a re-analysis of the deposited data

Results flagged for a closer look

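Within groups of 4 samples, 88 sets of values (the named segments' shares, the effective number of segments and the Trbv level) were searched for a sample whose gap to its nearest neighbour exceeded Dixon's 95% critical value. There were 8 such values, and chance gives about 1 in 20 sets. Trbv2, the Vβ4 segment, was at 7.73% in HP1γ-line WT sample 3 (3.10 to 3.505% in the other samples of the group), and Trbv14 at 4.21% in HP1α KO sample 3 (1.82 to 1.94%). Trbv26 was at 3.70% in HP1α KO sample 4, where the others were between 1.499 and 1.79%. Trbv29 was at 9.42% in HP1γ-line WT sample 2 (5.56 to 6.12%), and Trbv3 at 14.03% in HP1α-line WT sample 2 (8.03 to 8.84%). In the other direction, Trbv13-2 was at 12.9% in HP1α-line WT sample 3, just under the 14.04 to 14.1% of its group, and Trbv31 at 3.31% in HP1γ-line WT sample 4 (4.22 to 4.39%). The effective number of segments was 15.4 in HP1α KO sample 2, which had the highest Trbv13-2 share of all samples, 19.6%, against 16 or more in the rest of its group.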

How the results depend on the processing

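Both knockout comparisons and the interaction called 0 segments under every alternative, DESeq2 and each left-out sample included. Between the WT groups 2 segments were called in the reported fit, 1 with a replicate block (Trbv23) and 1 to 2 when a sample was left out; Trbv31 was lost with the block and without any sample except HP1α-line WT sample 4, and without HP1γ-line WT sample 3 Trbv26 was called instead. Over all 16 samples 4 were called, 2 with summed Trbv counts as library size (Trbv23 and Trbv26 kept, Trbv1 at 0.10 and Trbv31 at 0.26 lost) and 4 to 5 when a sample was left out. Trbv23 was called in all 14 alternatives of the WT comparison (log2 fold change 1.94 to 2.38) and in all 21 of the comparison over 16 samples (2.02 to 2.26), and Trbv26 in all 21 of the latter (0.70 to 1.08). The block changed no other call. Same-numbered samples were no stated pairs. Their correlations of deviations ran from 0.094 to 0.228 in the HP1α line, from 0.00286 to 0.153 in the HP1γ line and from -0.204 to -0.0654 between the WT groups. HP1α KO samples 2, 3 and 4 and HP1γ KO sample 2 correlated best with the WT sample of their own number. Whether same-numbered samples were paired could not be settled, so the block was kept as an alternative only. For Trbv19 the difference in share ran from -2.71 to -1.44 points in the HP1α line when a sample was left out, and from 0.0201 to 1.29 between WT groups; in the HP1γ line it ran from -0.299 to 0.726 and turned negative without KO sample 1 (-0.236), KO sample 3 (-0.269) or WT sample 4 (-0.299). Blocked p values for Trbv19 were 0.125, 1 and 0.5, where 4 pairs cannot go below 0.125 (exact permutation). Shares of TPM moved 27 of 80 group means by more than 1 SD, and leaving out pseudogenes 0 of 80. At a threshold of 1.5 times the median 9 pairs were expanded and 14 reduced, and at 3 times 0. Depth limits the rarest segments: Trbv21 had at most 10 counts in a sample.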
